A study of Homo sapiens with 12 samples.

Results

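DU145, a human prostate cancer cell line, carried a GFP reporter of Wnt/beta-catenin signalling, and its brightest and dimmest cells were compared by RNA sequencing. The comparison covers the 7624 genes, of 18950 in the deposited table, whose log2 value was at least 4 in at least 3 of the 6 DU145 libraries. A log2 value of 4 is 16 CPM, the reads of a gene normalised to library size. Of these 7624 genes, 6925 reached the minimum in all 6 libraries, 90 reached it in the GFP+ libraries alone and 40 in the GFP- libraries alone, so the genes of these last groups had to differ between the groups. The 245 genes that passed with exactly 3 libraries had a median log2 level of 3.99, and the 290 genes left out with exactly 2 had 3.79.

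The 3 GFP+ libraries came from the top 10% of sorted cells by GFP intensity, and the 3 GFP- libraries from the bottom 10%. The submitters call these fractions Wnt/beta-catenin signalling active and inactive. All cells were grown in DMEM with 10% FBS, and total RNA was taken with a column kit. The study sorted PC3, a second prostate cancer line, in the same way, which gave 12 libraries in all. The labels do not give the reporter's promoter, whether the reporter line was 1 clone, or whether replicates were separate cultures or sorts. The p-values thus measure sample-to-sample spread alone, part or all of which may be technical. Estimated read totals of the 6 DU145 libraries ran from 13453614 to 18463611, and 3 reads in 1 library correspond to 0.181 to 0.233 CPM.

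In canonical Wnt signalling, a secreted Wnt protein binds a Frizzled receptor with the coreceptor LRP5 or LRP6, and the complex of AXIN, APC, GSK3 and casein kinase that marks beta-catenin for degradation is then held back. Beta-catenin enters the nucleus and joins TCF/LEF factors, which turn on target genes, among them feedback genes such as AXIN2, LEF1 and ZNRF3. Reporters of the pathway generally place TCF/LEF sites before a marker gene. Wnt proteins are lipid-modified by PORCN and carried to the cell surface by WLS, and in prostate cancer the pathway is known for its links to androgen-independent growth.

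The promoters of 4 genes are shown: those of the near on/off rises WDR63 and KIAA1324, of WLS, the Wnt gene with the largest rise, and of LEF1, the feedback target called higher. WDR63 encodes a ciliary dynein chain, KIAA1324 a transmembrane protein of endosomes and lysosomes, WLS the Wnt carrier and LEF1 a TCF/LEF factor. Each sequence is the 250 bases before the start site in RefSeq, build GRCh38.p14, on the gene's strand. Capitals mark the TCF/LEF core, searched on both strands as CTTTG followed by AA, AT, TA or TT. WDR63 lies at chr1:85062077-85062326 on the plus strand, and this start is inside the longer GENCODE 29 span of the gene. KIAA1324 lies at chr1:109113865-109114114 on the plus strand, WLS at chr1:68232524-68232773 on the minus strand and LEF1 at chr4:108166302-108166551 on the minus strand.
WDR63: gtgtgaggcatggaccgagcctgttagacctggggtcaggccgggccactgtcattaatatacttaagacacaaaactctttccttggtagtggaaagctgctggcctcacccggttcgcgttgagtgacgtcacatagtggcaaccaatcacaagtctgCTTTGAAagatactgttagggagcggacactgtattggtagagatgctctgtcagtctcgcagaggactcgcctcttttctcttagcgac
KIAA1324: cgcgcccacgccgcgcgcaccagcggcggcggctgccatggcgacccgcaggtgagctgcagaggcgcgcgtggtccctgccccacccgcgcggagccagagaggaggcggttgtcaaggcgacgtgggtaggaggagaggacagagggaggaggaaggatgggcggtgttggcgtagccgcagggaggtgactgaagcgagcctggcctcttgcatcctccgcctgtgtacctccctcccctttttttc
WLS: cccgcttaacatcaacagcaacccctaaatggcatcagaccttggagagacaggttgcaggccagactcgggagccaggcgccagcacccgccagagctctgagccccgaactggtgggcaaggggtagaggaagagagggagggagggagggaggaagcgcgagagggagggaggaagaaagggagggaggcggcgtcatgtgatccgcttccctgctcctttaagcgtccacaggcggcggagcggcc
LEF1: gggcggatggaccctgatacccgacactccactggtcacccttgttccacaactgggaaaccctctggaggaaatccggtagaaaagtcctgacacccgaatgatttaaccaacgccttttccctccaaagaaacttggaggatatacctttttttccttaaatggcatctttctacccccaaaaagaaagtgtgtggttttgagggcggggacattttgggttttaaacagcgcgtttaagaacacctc
WDR63 held the core once, 90 bases before the start, and the other promoters shown held none. The core stood in 12.1% of all 27305 promoters of this length, and in 5.96% of the 6326 members matched to a promoter. Among matched members higher in GFP+ the share was 54 of 813 promoters, 6.64%, and among those lower 78 of 1465, 5.32%. The share was 13.4% in the 1266 matched members with the lowest promoter GC and 1.26% in the 1265 with the highest. A match describes letters only, and the windows of XPO4, FZD8 and TNF, described below, held none.

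The 6 libraries did not stand at equal distance from each other. GFP+ replicates 1 and 2 carried more reads of AT-rich transcripts and fewer of GC-rich ones than the other 4 libraries: Spearman's rho between transcript GC content and a library's deviation from the 6-library mean was -0.68 and -0.73 there, 0.29 in GFP+ replicate 3, and 0.61, 0.19 and 0.75 in the GFP- libraries. Over all members, GFP+ replicate 3 correlated with the GFP- libraries at 0.979 to 0.981 and with its own group at 0.972 and 0.981. After a smooth trend on GC content and transcript length was removed from each library, these correlations were 0.980 to 0.982 and 0.989 to 0.992. Many results are therefore given also with that trend removed ("GC-removed"), and some also without GFP+ replicates 1 and 2. Removing the trend also took out each library's level. The median log2 difference over all members was -0.11 on the deposited values, -0.01 GC-removed and -0.04 without GFP+ replicates 1 and 2. With the trend removed but each library's median level kept, it was -0.15. Where a setting is not given, the result may not hold in it.

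**Figure D1:**
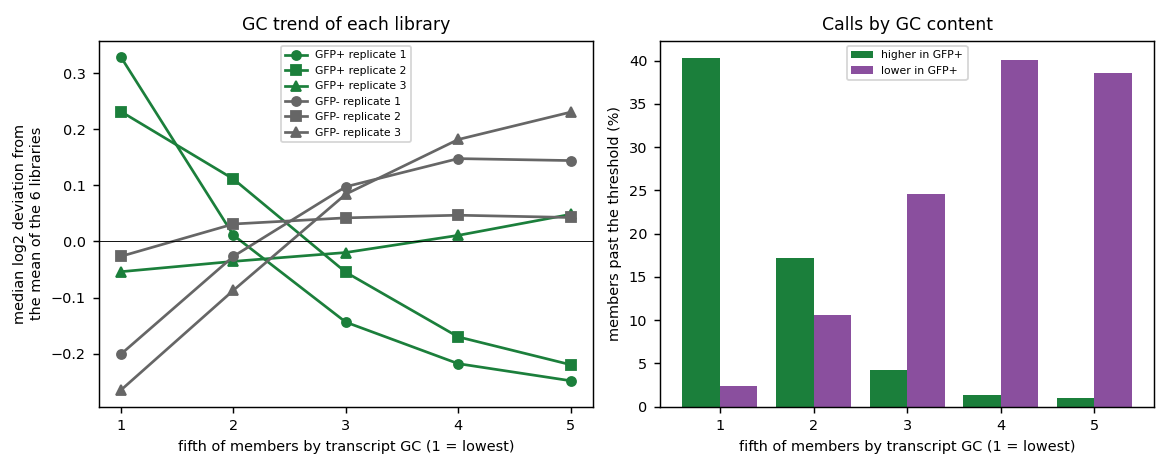
Left, median log2 deviation from the mean of the 6 DU145 libraries (vertical axis) in groups 1 to 5 of 1524 members each by transcript GC content (horizontal axis, 1 is lowest), 1 line per library: GFP+ replicates 1 and 2 slope down, from 0.33 and 0.23 to -0.25 and -0.22. Right, percent of members past the threshold in each group, higher (green) or lower (purple) in GFP+: 40.3% were higher in group 1 and 38.5% lower in group 5.

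Line and cell type markers gave a mixed picture. The libraries labelled DU145 held KRT8 at 1753 and 2755 CPM (GFP+ and GFP- means), while KLK2, KLK3 and TMPRSS2 had 0 or 1 read per group, as is known of DU145. CDH1, which DU145 cells are known to express, had only 16 and 13 reads. In the libraries labelled PC3, CTNNA1 stood at 387 and 408 CPM, although PC3 is known to have lost this gene. Line names below therefore mean the labels. PTPRC, LYZ, MS4A1 and FAP had 0 or 1 read per group. The summed leukocyte markers, nearly all of it CD68, were 26.0 to 32.8 CPM in GFP+ and 39.2 to 44.9 CPM in GFP-, the fibroblast markers 2.11 to 2.83 and 1.42 to 1.64 CPM, the endothelial markers 0.582 to 1.03 and 0.757 to 1.36 CPM, and the neuroendocrine markers 59.4 to 70.7 and 80.4 to 81.7 CPM. ACTA2, a smooth muscle actin of the fibroblast list, had 62 reads in GFP+ and 16 in GFP- (log2 2.17, adjusted p 0.026 over all genes, and 0.080 to 0.11 without GFP+ replicate 1 or 2 or GFP- replicate 1 or 3), and NCAM1, of the neuroendocrine list, had 36 and 5 (log2 2.59, adjusted p 0.0078). SYP and ENO2 of the same list were lower, at log2 -0.37 (adjusted p 0.017) and -0.36 (adjusted p 0.028), and GC-removed at -0.06 and -0.10 with no call. The part of these markers in the results was not tested, and in sorted bulk samples fewer cells of a type and less RNA per cell cannot be told apart.

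Between the sorted fractions, 2747 of the 7624 members passed an adjusted p of 0.05 (36% of members, limma, two-sided, Benjamini-Hochberg over all members). Of these, 976 were higher in GFP+ (12.8%) and 1771 lower (23.2%), and the median difference over all members was -0.11 on the log2 scale. Large differences were few and mostly rises. At least 2-fold, 43 members were higher (0.564%) and 10 lower (0.131%), and 10 of the rises were at least 4-fold. The 3 values of 1 group lay wholly above those of the other in 3391 members (44.5%), with GFP+ above in 1042 (13.7%) and below in 2349 (30.8%), of which in all 2455 were also called.

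The count of small differences moved with GC content and with single libraries. Of the 1524 members with the lowest transcript GC 40.3% were higher and 2.36% lower, with a median of 0.33, and of the 1524 with the highest 0.984% and 38.5%, with a median of -0.28. GC-removed, 2122 members passed (27.8%), 915 higher (12%) and 1207 lower (15.8%), of which 463 and 778 were called the same way on the deposited values. Of the large differences, 42 of 43 rises and 9 of 10 falls were still called. Counted anew, differences of at least 2-fold numbered 29 higher and 11 lower GC-removed, 132 and 13 without GFP+ replicate 3, 66 and 10 without GFP- replicate 2, and 16 and 7 without GFP+ replicates 1 and 2. With each library's median deviation set to 0 the split of small calls turned, to 1397 higher and 846 lower, and with equal medians it was 1124 and 1287. Without GFP+ replicate 1 the call count was 831, without replicate 2 it was 974, without replicate 3 it was 4303 (56.4%), without GFP- replicate 1 it was 1222 and without GFP- replicate 3 it was 831. Without GFP+ replicates 1 and 2 together, 91 members were called (1.19%). A set of 89 members (1.17%), 30 higher (0.393%) and 59 lower (0.774%), was called in every leave-one-out, without GFP+ replicates 1 and 2, and GC-removed. These are called steady below.

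Among the ligands and their secretion, the Wnt carrier WLS had the largest rise of the pathway. Its GFP+ libraries stood at 19.7, 20.9 and 20.5 CPM and its GFP- libraries at 1.61, 1.19 and 2.14 CPM. All GFP+ values lay far above all GFP- values, a log2 difference of 3.67 ± 0.17 (SE, n = 3 per group, limma adjusted p 8.6e-09), and the call was steady. WLS reached the minimum in GFP+ libraries alone and so had to differ. With no minimum, over all genes, its limma adjusted p was 1.1e-08. WNT5B, a ligand best known for non-canonical signalling, stood at 107, 99.4 and 119 CPM in GFP+ and at 162, 149 and 164 CPM in GFP-. It was lower in all 3 GFP+ libraries (log2 -0.55 ± 0.10, adjusted p 0.0034), and GC-removed the difference was -0.23 (adjusted p 0.011). PORCN, which adds the lipid to Wnt proteins, was at 17.0 and 19.8 CPM (log2 -0.22, adjusted p 0.14). The remaining 17 ligands in the table were below the minimum. In the fit to all 18950 genes, where 15.4% were called, 1 of these passed: WNT2B, at 8.04, 9.28 and 7.87 CPM in GFP+ and 11.3, 15.6 and 15.1 CPM in GFP- (log2 -0.73 ± 0.15, adjusted p 0.0094, and 0.052 without GFP- replicate 3).

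Frizzled receptors moved in opposite directions. FZD8 had the largest of the called falls without overlap, with 5.20, 7.32 and 9.51 CPM in GFP+ against 26.6, 23.02 and 32.2 CPM in GFP- (log2 -1.92 ± 0.19, adjusted p 4.7e-05, steady). FZD8 reached the minimum in GFP- libraries alone and so had to differ. With no minimum, over all genes, its limma adjusted p was 4.4e-05. FZD6, a Frizzled often described as an inhibitor of the canonical branch, stood at 60.8, 46.9 and 34.9 CPM in GFP+ and 18.6, 20.1 and 14.3 CPM in GFP-. Its values did not overlap (log2 1.41 ± 0.19, adjusted p 0.00055), and the difference was 1.03 GC-removed and 0.997 without GFP+ replicates 1 and 2 (adjusted p 0.051). LGR4, a receptor for R-spondins, which keep Frizzleds on the cell surface, was below the minimum at 15.96, 16.8 and 12.1 CPM against 6.64, 7.46 and 7.21 CPM (log2 1.06 ± 0.16, adjusted p 0.0014 over all genes). FZD1, also below the minimum, was at 7.96, 8.17 and 6.17 CPM against 5.001, 4.29 and 5.30 CPM. Its groups did not overlap (log2 0.61, adjusted p 0.029), but without any of the libraries other than GFP+ replicate 3 the adjusted p was 0.065 to 0.12. The coreceptors LRP6 and LRP5 passed at 0.48 (adjusted p 0.028) and -0.26 (adjusted p 0.039). Both calls ended GC-removed, at 0.02 and -0.02, and without GFP+ replicate 1 or 2 or GFP- replicate 1 or 3, at adjusted p of 0.059 to 0.15. Of 7 receptors above the minimum 2 were higher and 2 lower (28.6% each, beside 12.8% and 23.2% of all members). Their median was -0.15 beside -0.11 over all members.

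Beta-catenin itself hardly moved. CTNNB1 stood at 484, 512 and 454 CPM in GFP+ and 504, 463 and 463 CPM in GFP-, overlapping values with a log2 difference of 0.02 ± 0.08 (adjusted p 0.85), or -0.17 GC-removed (adjusted p 0.055). Members of the destruction complex and its regulators gave 3 higher and 2 lower of 15, with a median of -0.02. These are shares of 20% and 13.3%, beside 12.8% and 23.2% of all members. USP34, a deubiquitinase of AXIN (log2 0.80), TNKS2, which marks AXIN for turnover (0.68), DVL1, which relays the receptor signal (-0.38), and PPP2R1A, a phosphatase scaffold (-0.37), were among the calls. These 4 calls did not hold without GFP+ replicate 1, without GFP+ replicate 2 or without GFP- replicate 3, where their adjusted p were 0.051 to 0.13.

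In the nucleus, LEF1 rose from a low level. Its GFP+ libraries were at 1.88, 2.32 and 2.44 CPM and its GFP- libraries at 0.879, 0.355 and 0.691 CPM, or 95 and 29 reads in all. The groups did not overlap (log2 1.87 ± 0.40, adjusted p 0.0096 over all genes), and LEF1 also rose between the PC3 fractions (1.67, adjusted p 0.022). The adjusted p was 0.061 in a fit to the DU145 libraries alone and 0.17 without GFP+ replicates 1 and 2. TCF7L2, a TCF factor, was at 24.97 and 23.2 CPM with no call (log2 0.11, adjusted p 0.48). CTNNBIP1, an inhibitor that keeps beta-catenin from TCF, fell, from 103, 111 and 120 CPM in GFP- to 57.8, 66.4 and 69.8 CPM in GFP+ (log2 -0.79 ± 0.11, adjusted p 0.00057, and -0.50 GC-removed). The corepressor TLE4 (log2 0.47, adjusted p 0.0016) and the coactivator CREBBP (0.37, adjusted p 0.0032) rose, with no overlap between groups. In all, 2 of 15 factors above the minimum were higher and 1 lower (13.3% and 6.67%, beside 12.8% and 23.2% of all members). Their median was -0.12 beside -0.11 over all members. Without GFP+ replicates 1 and 2 the median of these factors was -0.02, beside -0.04 over all members.

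Textbook targets of the pathway did not rise as a group. Of 24 feedback genes in the table only 3 passed the minimum, and over all genes LEF1 was the 1 call higher and KREMEN1 the 1 call lower. AXIN2, a widely used readout of the pathway, had 0.743, 1.60 and 0.737 CPM in GFP+ and 0.455, 0.291 and 0.955 CPM in GFP-, overlapping groups of 45 and 25 reads (log2 0.93 ± 0.58, adjusted p 0.30). ZNRF3, which removes Frizzleds from the surface, was at 19.2, 22.4 and 24.1 CPM against 24.4, 28.96 and 27.03 CPM (log2 -0.29, adjusted p 0.056). KREMEN1, a receptor for the antagonist DKK1, was at 28.5, 29.8 and 32.9 CPM against 44.3, 40.8 and 48.3 CPM and lower in all 3 GFP+ libraries (log2 -0.55 ± 0.10, adjusted p 0.0037, and -0.38 GC-removed). Of 15 other reported targets 1 was higher and 4 were lower (6.67% and 26.7%, beside 12.8% and 23.2% of all members). Their median was -0.11, the same as over all members. MYC was at 250.6, 251 and 246 CPM in GFP+ and 341, 355 and 338 CPM in GFP- (log2 -0.47 ± 0.06, adjusted p 0.00028), a steady fall. GC-removed, MYC was at -0.21 (adjusted p 0.049), and at -0.13 (adjusted p 0.17) when GFP+ replicate 3 was also left out. MET, the receptor of hepatocyte growth factor, was the target that rose (log2 0.73, adjusted p 0.0028). PLAUR, the urokinase receptor (-0.51), VCAN, a matrix proteoglycan (-0.91), and BIRC5, an inhibitor of apoptosis (-0.26), fell. VCAN reached the minimum in GFP- libraries alone and so had to differ. With no minimum, over all genes, its limma adjusted p was 0.0010. BIRC5 was not called GC-removed (-0.05) or without GFP+ replicate 1 or 2 or GFP- replicate 1 or 3 (adjusted p 0.094 to 0.14).

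**Figure D2:**
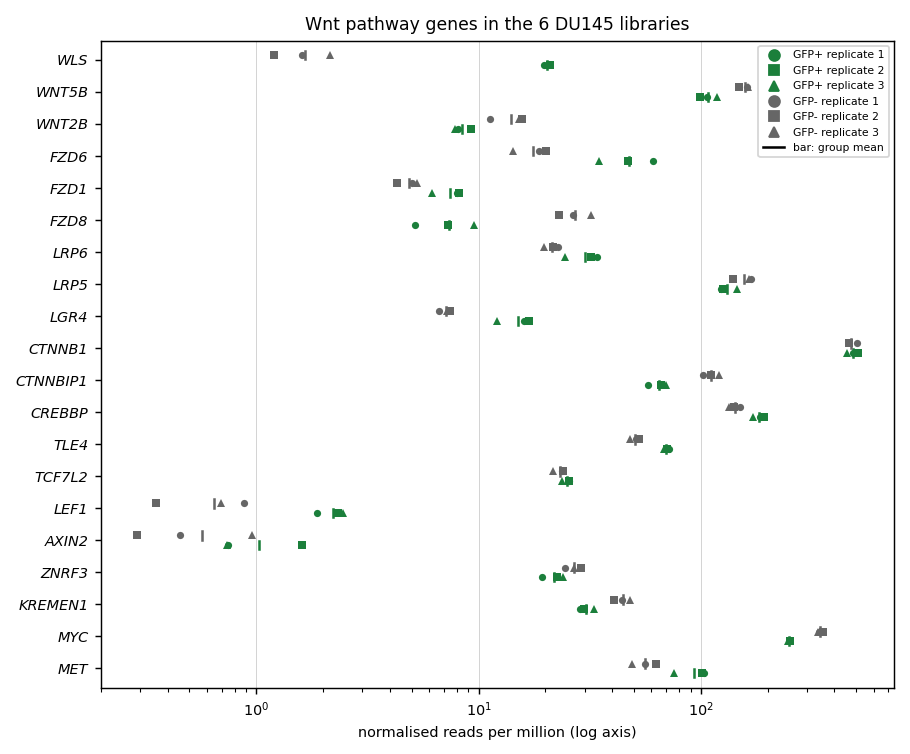
CPM on a log axis of Wnt pathway genes in the 6 DU145 libraries, GFP+ in green and GFP- in grey, with a symbol per replicate and a bar at each group mean. WLS, FZD6, LGR4 and LEF1 lie higher in GFP+, FZD8, CTNNBIP1, KREMEN1 and MYC lower, and CTNNB1, TCF7L2 and AXIN2 overlap.

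The largest rises were near on/off. WDR63 (chr1:84999147-85133138, GENCODE 29, GRCh38) stood at 32.1, 36.4 and 34.2 CPM in GFP+. In GFP-, replicates 1 and 2 had no read and replicate 3 had 0.428 CPM, so that the groups held 1497 and 6 reads. The fitted log2 difference of 8.84 ± 0.84 (adjusted p 3.1e-05) depends on the 0.5 read that stands for a 0 in the deposited values. KIAA1324 (chr1:109113679-109206781) stood at 55.7, 64.3 and 63.0 CPM in GFP+ against 0.394, 0.678 and 0.428 CPM in GFP-, or 2665 and 22 reads (log2 6.97 ± 0.39, adjusted p 1.3e-07). Both genes were steady, with GFP+ values far above every GFP- value. Both reached the minimum in GFP+ libraries alone and so had to differ. With no minimum, over all genes, their limma adjusted p were 2.8e-05 for WDR63 and 2.8e-07 for KIAA1324. In the PC3 fractions neither was called, at log2 0.03 and -0.26 with adjusted p of 0.99 and 0.74. CCND2, a G1 cyclin, had 31.1, 37.5 and 30.1 CPM against 5.06, 2.81 and 3.26 CPM (log2 3.19 ± 0.73, adjusted p 0.0083, and 0.29 without GFP+ replicates 1 and 2).

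XPO4, USP3, HSPG2, KMT2C and LTB reached the minimum in all 6 libraries and also rose. XPO4, a nuclear export receptor on chromosome 13, stood at 325, 318 and 236 CPM in GFP+ and 22.3, 25.2 and 23.5 CPM in GFP- (log2 3.62 ± 0.13, adjusted p 1.1e-09). USP3, a deubiquitinase of histone H2A, was at 206, 237 and 187 CPM against 34.9, 39.7 and 34.1 CPM (log2 2.53 ± 0.10, adjusted p 1.7e-09). HSPG2, the gene of perlecan, a large heparan sulfate proteoglycan of basement membranes, was at 231, 228 and 224 CPM against 50.1, 49.8 and 52.4 CPM (log2 2.17 ± 0.08, adjusted p 1.1e-09). KMT2C, a histone H3 lysine 4 methyltransferase, was at 165, 163 and 115 CPM against 33.4, 35.0 and 35.8 CPM (log2 2.07 ± 0.15, adjusted p 3.5e-06). In XPO4 and KMT2C, GFP+ replicate 3 was the lowest of its group and still far above every GFP- library. These 4 genes were steady, as were ATP2B1, a calcium pump of the plasma membrane (log2 2.60), and ZNHIT6, an assembly factor of small nucleolar RNPs (1.69). LTB, lymphotoxin beta, was at 93.0, 127 and 145 CPM against 35.0, 37.5 and 49.3 CPM (log2 1.57 ± 0.37, adjusted p 0.0088, and 0.18 without GFP+ replicates 1 and 2). ZSWIM5 (1.93) and the histone genes HIST2H4B (2.30), HIST2H2BE (1.90) and HIST2H4A (1.74) complete the 15 largest rises. HIST2H4A and HIST2H4B are near-identical copies whose reads could be split between them, and HIST2H4B had an adjusted p of 0.055 without GFP- replicate 3. All 15 were called GC-removed, and 9 of them without GFP+ replicates 1 and 2. Their median transcript GC was 47.7%. WDR63, KIAA1324, WLS, CCND2, ATP2B1, HIST2H4B, ZSWIM5 and HIST2H2BE, 8 of the 15, reached the minimum in GFP+ libraries alone and so had to differ. With no minimum, over all genes, these 8 had adjusted p of 1.1e-08 to 0.016.

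Genes around the 6 largest rises are given as context. In the fit to all genes, 10.6% of the 11973 genes with a mean of at least 1 CPM were higher and 11.9% lower. Among such genes within 1 Mb of WDR63, 4 of 14 were higher and 0 lower (median log2 0.46). The higher and lower counts were 0 and 2 of 26 at KIAA1324 (-0.05), 2 and 0 of 4 at WLS (0.46), 2 and 0 of 12 at XPO4 (0.41), 1 and 1 of 7 at CCND2 (0.05) and 2 and 0 of 4 at ATP2B1 (0.46). ZNHIT6, itself among the 15 largest rises, is 1 of the 4 higher at WDR63. MCOLN2, next to WDR63, was at 8.43 and 8.46 CPM (log2 0.00, adjusted p 0.99). MCOLN3, whose span overlaps WDR63 on the other strand, was at 4.33 and 1.71 CPM (log2 1.35, adjusted p 0.033 over all genes, and 0.092 to 0.13 without GFP+ replicate 1 or 2 or GFP- replicate 1 or 3). Whether the reads were counted by strand is not given, so reads of the pair cannot be told apart. C1orf194, whose span overlaps KIAA1324, had 1 read in each group, and SARS, on the other side, was lower (log2 -0.36, adjusted p 0.018, and 0.066 to 0.085 without the same 4 libraries). The neighbours of WLS, DIRAS3 and RPE65, had 0 to 1 read, a depth at which a difference is not detectable. Beside XPO4, EEF1AKMT1 was at 3.05 and 4.55 CPM (log2 -0.64, adjusted p 0.29), and LATS2, a kinase of the Hippo pathway, rose (0.47, adjusted p 0.0039). PARP11 and TIGAR beside CCND2 were at log2 -0.02 and 0.06 with no call, and POC1B-GALNT4 and CCER1 beside ATP2B1 were not called.

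The largest falls were smaller than the largest rises. After FZD8 came RCN3, a calcium-binding protein of the endoplasmic reticulum, at 4.71, 6.90 and 7.95 CPM against 18.9, 17.9 and 18.3 CPM (log2 -1.53 ± 0.22, adjusted p 0.00081). TNF, the inflammatory cytokine, was at 44.0, 40.2 and 45.0 CPM in GFP+ and 111, 118 and 127 CPM in GFP- (log2 -1.47 ± 0.12, adjusted p 5.4e-06). PHLDA2, an imprinted growth-restraining gene, was at 32.5, 37.2 and 45.6 CPM against 91.7, 88.4 and 114 CPM (log2 -1.36 ± 0.13, adjusted p 4.4e-05). Every GFP+ value of these genes lay below every GFP- value, and TNF and PHLDA2 were steady. C1QL4, a secreted C1q-like protein (-1.37), the antisense RNA DLGAP1-AS2 (-1.19), CBSL (-1.03) and VCAN (-0.91) were steady too. CBSL is a near-identical copy of CBS, and the reads of DLGAP1-AS2 could include those of its partner. RIPK4, a kinase of epithelial differentiation (-1.01), and EEF1A2, a translation elongation factor (-0.93), also fell. MC1R (-0.92) adjoins TUBB3 and shares readthrough transcripts with it, and TUBB3, a neuronal tubulin, fell as well (-0.85). GNG4 (-1.02) lost its call without each of the 6 libraries in turn (adjusted p 0.051 to 0.14) and GC-removed (0.071). CLDN11, a claudin (-0.94), and TIMP2, an inhibitor of metalloproteinases (-0.92), lost theirs without GFP+ replicate 1 or 2 or GFP- replicate 1 or 3 (0.052 to 0.10) and GC-removed (0.052 and 0.091). Of the 15 largest falls, 12 were called GC-removed and 8 without GFP+ replicates 1 and 2, and their median transcript GC was 58.5%. VCAN, MC1R, CLDN11, RIPK4, GNG4, C1QL4, RCN3 and FZD8, 8 of the 15, reached the minimum in GFP- libraries alone. In the fit to all genes 7 of these 8 were called, at adjusted p from 4.4e-05, and GNG4 was not, at 0.083.

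**Figure D3:**
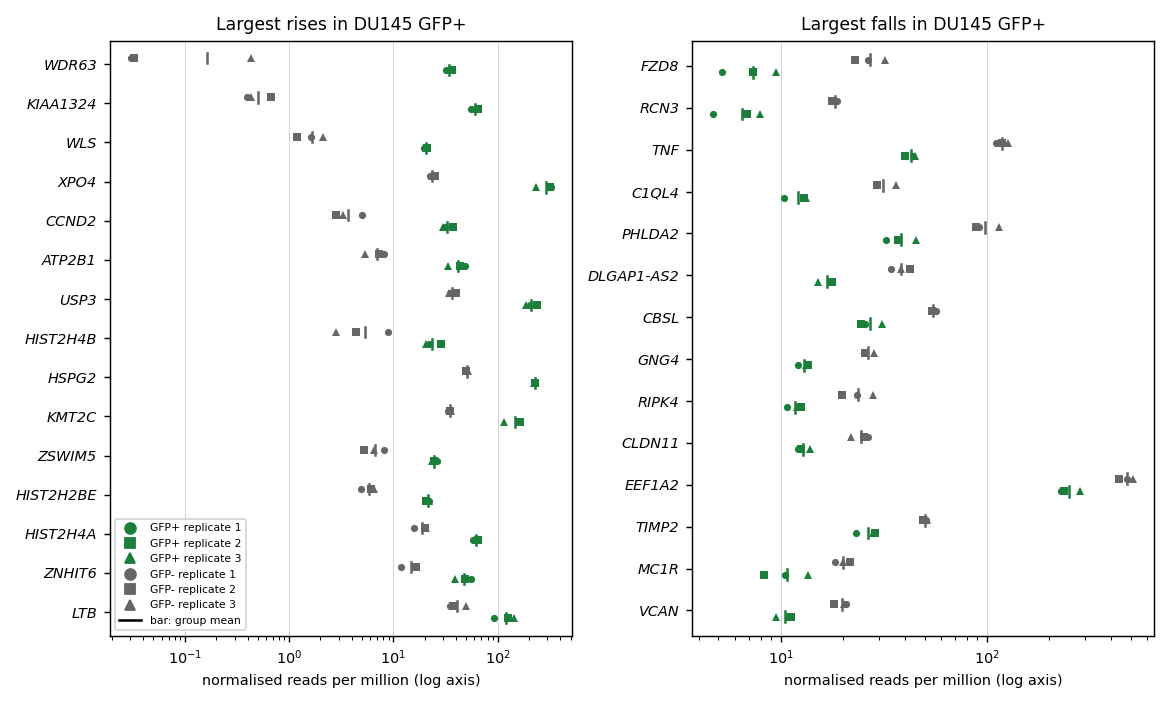
CPM on a log axis of the largest rises (left) and falls (right) named in the text, all called and with no overlap, in the 6 DU145 libraries, GFP+ in green and GFP- in grey, with a symbol per replicate and a bar at each group mean. WDR63 and KIAA1324 lie below 1 CPM in every GFP- library, and the other rises are present in both groups.

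Replication-dependent histone genes rose together. These genes encode the core and linker histones, and their classical transcripts end in a stem-loop and are made in S phase. Of 7 above the minimum 5 were higher and 1 lower, with a median of 1.37 beside -0.11 over all members. HIST2H2BE, 1 of the 5 higher, reached the minimum in GFP+ libraries alone and so had to differ. With no minimum, over all genes, its limma adjusted p was 0.0021. HIST2H4A, also higher, reached the minimum in 3 GFP+ and 2 GFP- libraries. In the fit to all genes, where 7.54% were higher and 7.84% lower, 14 of the 24 in the table were higher and 1 lower. HIST1H1C, a linker histone, stood at 244, 255 and 316 CPM in GFP+ and 122, 119 and 128 CPM in GFP- (log2 1.13 ± 0.15, adjusted p 0.00034). HIST1H2AC was at 39.6, 44.3 and 47.8 CPM against 21.2, 15.9 and 15.2 CPM (log2 1.35 ± 0.15, adjusted p 0.00013), and HIST1H2BK was at 54.7, 44.7 and 67.3 CPM against 22.1, 22.1 and 19.6 CPM (1.37 ± 0.23, adjusted p 0.0019). These 3 were steady and without overlap. HIST1H4C fell, at 17.3, 15.1 and 17.6 CPM against 27.4, 22.2 and 24.5 CPM (log2 -0.56, adjusted p 0.015, and 0.055 to 0.067 without GFP+ replicate 2 or GFP- replicate 1 or 3). GC-removed the counts were again 5 and 1, with a median of 1.65, and without GFP+ replicates 1 and 2 they were 3 and 0. Of 38 S phase genes 3 were higher and 10 lower (7.89% and 26.3%, beside 12.8% and 23.2% of all members), with a median of -0.13, among them TYMS, which makes thymidylate (-0.40), and MCM5, of the replicative helicase (-0.52). Of 36 G2/M genes 6 were higher and 9 lower (16.7% and 25%, near the shares of all members). The spindle factor TPX2 (0.53, steady) and the anaphase activator CDC20 (-0.51) went in opposite directions. Without GFP+ replicate 3 these cell cycle counts were 11 and 14 in S phase and 14 and 10 in G2/M, and without GFP+ replicate 1 or 2 or GFP- replicate 1 or 3 they were 0 higher and 5 to 7 lower in S phase and 1 to 2 higher and 3 to 4 lower in G2/M.

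Genes of cholesterol synthesis were more often lower than higher. In this list 13 of 23 members were lower and 1 higher (56.5% and 4.35%, beside 23.2% and 12.8% of all members), with a median of -0.31 beside -0.11. In fatty acid synthesis 6 of 13 were lower and 2 higher (46.2% and 15.4%), with a median of -0.16. With quantile normalization or without GFP- replicate 3, 4 were lower. FASN, the fatty acid synthase, stood at 2169, 2329 and 2589 CPM in GFP+ and 3611, 3493 and 4343 CPM in GFP- (log2 -0.69 ± 0.10, adjusted p 0.00098). ACLY, which makes cytosolic acetyl-CoA, was at 656, 736 and 740 CPM against 1026, 1000.2 and 1109.9 CPM (log2 -0.56, adjusted p 0.00047), and SCD, the stearoyl-CoA desaturase, was at 848, 997 and 914 CPM against 1239, 1275 and 1299 CPM (-0.47, adjusted p 0.00097). The groups did not overlap in these genes, and ACLY and SCD were steady. On the sterol side MVD (-0.70), DHCR7 (-0.59), LSS (-0.48) and FDFT1 (-0.44), which catalyse steps between mevalonate and cholesterol, and SREBF2, the master regulator of the pathway (-0.40), fell. ACSL3, which activates long-chain fatty acids, rose (0.75, adjusted p 0.0019). GC-removed, 15 sterol genes were lower and 2 higher, with a median of -0.21, and without GFP+ replicates 1 and 2 no sterol gene was called, with a median of -0.25. When single libraries were left out 8 to 12 sterol genes were lower, the fewest without GFP- replicate 3. Beside these sterol medians, the median over all members was -0.01 GC-removed and -0.04 without GFP+ replicates 1 and 2. With the trend removed but each library's median level kept, 19 sterol genes were lower and 1 higher, with a median of -0.35 beside -0.15.

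Lower calls were also more frequent among glycolysis genes and genes of the unfolded protein and ATF4 response than among all members. Of 20 glycolysis members 11 were lower and 1 higher (55% and 5%, beside 23.2% and 12.8% of all members), with a median of -0.34 beside -0.11. SLC16A3, a lactate exporter (-0.57), HK1, a hexokinase (-0.59), GPI (-0.45) and PGAM1 (-0.42), of the glycolytic chain, were lower in all 3 GFP+ libraries, with adjusted p of 0.0025 to 0.0067. GC-removed the counts were 10 and 2, with a median of -0.15 beside -0.01 over all members. With the trend removed but each library's median level kept, 14 were lower and 2 higher, with a median of -0.30 beside -0.15. Without GFP+ replicate 1 or 2 or GFP- replicate 1 or 3 each time 5 were lower. Without GFP+ replicates 1 and 2 together the glycolysis median was -0.19, beside -0.04 over all members. In the unfolded protein and ATF4 response, 10 of 18 were lower and 2 higher (55.6% and 11.1%), with a median of -0.31. ASNS, the asparagine synthetase, stood at 88.4, 92.6 and 90.2 CPM in GFP+ and 168, 150 and 148 CPM in GFP- (log2 -0.78 ± 0.07, adjusted p 2.7e-05), and PSAT1, of serine synthesis, was at 136, 144 and 137 CPM against 198, 214 and 206 CPM (-0.57 ± 0.07, adjusted p 0.00020). Both were steady and without overlap. CBS, of cysteine synthesis (-0.65), TRIB3, a stress pseudokinase (-0.70), and SHMT2, of mitochondrial serine breakdown (-0.50), fell as well. GC-removed, 8 of this list were lower and 3 higher, with a median of -0.08 beside -0.01 over all members. With the trend removed but each library's median level kept, 10 were lower and 2 higher, with a median of -0.23 beside -0.15. When single libraries were left out 8 to 10 of this list were lower. The list's median was -0.15 without GFP+ replicates 1 and 2, beside -0.04 over all members.

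Ribosomal and mitochondrial genes shifted little, and in step with the libraries. Of 76 cytosolic ribosomal proteins 16 were lower and none higher, with a median of -0.23. The lower share, 21.1%, is near the 23.2% of all members. An example is RPS15 at 844, 818 and 1086.5 CPM against 1147, 1168 and 1339 CPM (log2 -0.42, adjusted p 0.021, and 0.094 to 0.098 without GFP+ replicate 1 or 2 or GFP- replicate 3). GFP+ replicate 3 lay nearest to the GFP- group. Without GFP+ replicate 3, 54 ribosomal genes were lower, without GFP+ replicate 1 or 2 or GFP- replicate 3 none was, and without GFP- replicate 1 it was 1. GC-removed 14 were lower and 7 higher, with a median of -0.08, with quantile normalization 1 was lower and 6 higher, and with each library's median deviation set to 0 none was lower and 2 were higher, so the direction of the calls depended on the scaling. Of 41 oxidative phosphorylation genes 5 were lower and 2 higher (12.2% and 4.88%, beside 23.2% and 12.8% of all members). Their median was -0.23, and -0.07 GC-removed. Of 34 mitochondrial ribosomal proteins 8 were lower and 1 higher (23.5% and 2.94%), with medians of -0.24 and -0.05. Without GFP+ replicate 3 these lists had 25 and 24 lower, without GFP+ replicate 1 or 2 or GFP- replicate 1 or 3 they had 0 and 2, and with each library's median deviation set to 0 they had 0 lower with 2 higher and 1 lower with 3 higher. With the trend removed but each library's median level kept, the cytosolic ribosomal list had 37 lower and none higher, with a median of -0.23. The oxidative phosphorylation and mitochondrial ribosome lists then had 21 and 17 lower and none higher, with medians of -0.22 and -0.19.

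Ubiquitin-specific proteases, which remove ubiquitin from proteins, were more often higher. Of 30 members 11 were higher and 3 lower (36.7% and 10%, beside 12.8% and 23.2% of all members). The median was 0.23 and 0.12 GC-removed, where 10 were higher and 1 lower. With the trend removed but each library's median level kept, 3 were higher and 6 lower, with a median of -0.02. USP3 led the list, and USP9X, an X-linked family member, was at 102, 89.1 and 65.6 CPM against 48.0, 56.1 and 41.5 CPM (log2 0.81 ± 0.16, adjusted p 0.0043, and 0.32 GC-removed). The count depended on libraries: 2 were higher without GFP+ replicate 1, without GFP+ replicate 2 or without GFP- replicate 3, 6 without GFP- replicate 1 and 16 without GFP+ replicate 3. The list's median transcript GC was 45.5%. Of 23 nuclear transport receptors 7 were higher and 3 lower (30.4% and 13%, beside 12.8% and 23.2% of all members). XPO4 was far ahead, while XPO5, the exporter of microRNA precursors, fell (-0.36, adjusted p 0.0029, steady). GC-removed this list turned to 2 higher and 5 lower, and 1 was higher without GFP+ replicate 1 or 2 or GFP- replicate 1 or 3 and 10 without GFP+ replicate 3. Of 17 KMT2 and KDM enzymes 3 were higher and none lower (17.6% and 0%, beside 12.8% and 23.2% of all members). KMT2C and the demethylase KDM3A (0.53, adjusted p 0.0096) were among the higher ones. KDM3A had 0.19 GC-removed (adjusted p 0.095) and 0.054 to 0.055 as adjusted p without GFP+ replicate 1 or GFP- replicate 3.

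Hippo pathway genes were more often higher than lower. YAP1, the pathway's coactivator, stood at 161, 153 and 116 CPM in GFP+ and 91.5, 93.5 and 78.8 CPM in GFP- (log2 0.70 ± 0.12, adjusted p 0.0019). AMOTL1, a YAP-binding junction protein, was at 112, 117 and 105 CPM against 55.7, 60.6 and 62.2 CPM (0.90 ± 0.12, adjusted p 0.00040). In all, 5 of 15 were higher and 1 lower (33.3% and 6.67%, beside 12.8% and 23.2% of all members), with a median of 0.19. GC-removed 7 were higher and none lower, with a median of 0.17. With the trend removed but each library's median level kept, 5 were higher and 2 lower, with a median of 0.03. Without GFP+ replicate 2, 3 were higher, without GFP+ replicate 3 it was 8, and without GFP+ replicates 1 and 2 none was called. In the TGF-beta list 4 of 13 were higher and 4 lower (30.8% each, beside 12.8% and 23.2% of all members). THBS1, thrombospondin 1, which activates latent TGF-beta, was at 234, 229 and 197 CPM against 129, 111 and 101 CPM (0.95 ± 0.10, adjusted p 6.9e-05, steady), and the signal transducers SMAD4 (0.92) and SMAD7 (0.60) rose. LTBP2, a latent TGF-beta binding protein family member, was at 72.9, 71.2 and 72.5 CPM against 127, 125 and 127 CPM (log2 -0.80 ± 0.07, adjusted p 7.6e-06), a steady fall. These groups did not overlap.

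Members of the TNF family went in both directions. Of 11 ligands and receptors 3 were higher and 3 lower (27.3% each, beside 12.8% and 23.2% of all members), with a median of -0.07. TNF and TNFSF9, the ligand of 4-1BB (-0.70, steady), fell, while LTB and TNFRSF12A, the TWEAK receptor, rose (0.29, adjusted p 0.027, and 0.63 GC-removed). TNFRSF12A was at 225, 229 and 270.1 CPM against 192, 193 and 206 CPM, and its adjusted p was 0.056 to 0.089 without GFP+ replicate 2 or 3 or any GFP- library. Of 16 NF-kB factors and targets 1 was higher and 4 lower (6.25% and 25%, near the shares of all members). Their median was -0.11, the same as over all members. NFKB2 was at 221, 257 and 276 CPM against 384, 338 and 407 CPM (-0.58 ± 0.10, adjusted p 0.0023), and IER3, an early response gene, fell too (-0.56). With equal medians, quantile normalization, GC removal or centred libraries this list gave 3 higher and 2 lower. Among AP-1 and immediate early genes 2 of 15 were higher and 5 lower (13.3% and 33.3%, beside 12.8% and 23.2% of all members). Their median was -0.28. GC-removed 5 were higher and 5 lower, with a median of -0.04. EGR1 was at 65.4, 76.1 and 70.7 CPM against 27.1, 26.6 and 35.5 CPM (1.26 ± 0.11, adjusted p 1.1e-05, steady), and FOSL2 at 77.7, 83.7 and 77.9 CPM against 118, 107 and 119.6 CPM (-0.53 ± 0.07, adjusted p 0.00040, steady).

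Adhesion genes changed as single genes. DSG2, the desmosomal cadherin of simple epithelia, stood at 69.4, 65.4 and 50.2 CPM in GFP+ and 19.5, 24.2 and 22.3 CPM in GFP- (log2 1.48 ± 0.15, adjusted p 4.9e-05, steady), while its cytoplasmic partner JUP, plakoglobin, fell (-0.62, adjusted p 0.0076). The luminal keratins KRT8 (-0.66, adjusted p 0.0012) and KRT18 (-0.52, adjusted p 0.0092) were lower in all 3 GFP+ libraries, at -0.38 and -0.23 GC-removed. The tight junction scaffold TJP1 rose (0.58). OCLN rose at 0.51 and F11R fell at -0.30, with the OCLN call lost GC-removed (0.11) and both lost without GFP+ replicate 1 or GFP- replicate 3 (adjusted p 0.050 to 0.12). Among integrins ITGA5, the fibronectin receptor subunit (-0.56), and ITGB5 (-0.40) fell, and ITGB1 rose (0.48, adjusted p 0.018, and 0.059 to 0.094 without GFP+ replicate 1 or 2 or GFP- replicate 1 or 3). In the basement membrane list 2 of 11 were higher and 2 lower (18.2% each, beside 12.8% and 23.2% of all members). Beside HSPG2 it held LAMB1, a laminin chain (0.47), and DAG1, dystroglycan (-0.24), whose calls were lost without GFP+ replicate 1 or GFP- replicate 3 (adjusted p 0.059 to 0.13).

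**Figure D4:**
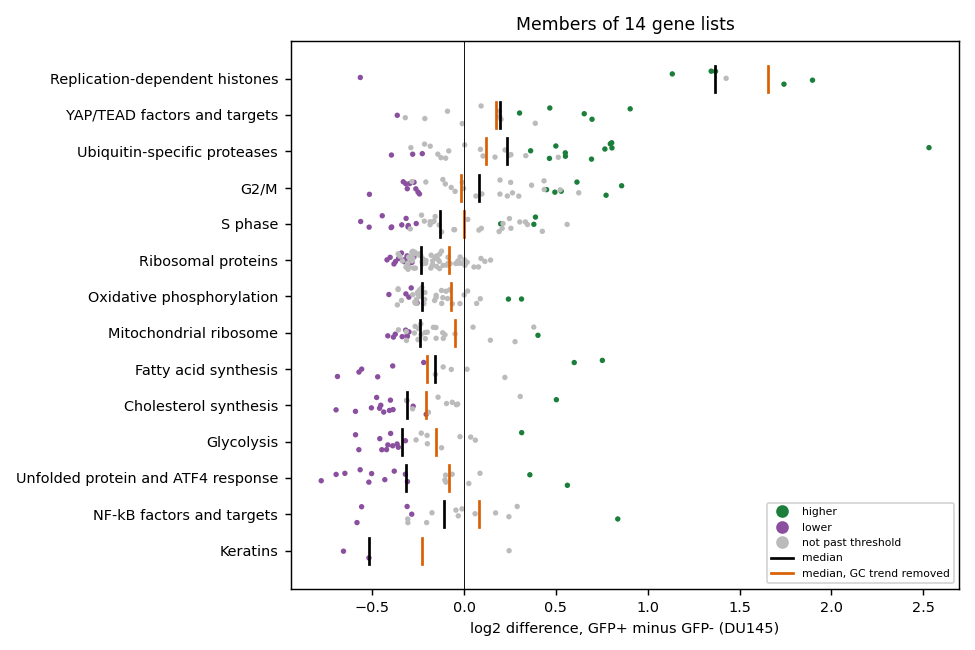
Log2 difference, GFP+ minus GFP- (horizontal axis), of each above-minimum member of the gene lists named on the left, as a dot coloured by call, with the list's median on the deposited values (black bar) and GC-removed (orange bar). The histone median lies at 1.37 and 1.65, and the lists of lipid synthesis and glycolysis lie below 0. The ribosomal and mitochondrial medians lie nearer to 0 GC-removed, a setting that also takes out each library's level.

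Members of 2 chromosomes shifted as blocks. On chromosome 22, 142 of 228 members were lower (62.3%, beside 23.2% of all members) and 7 higher, with a median of -0.37. The median was -0.14 GC-removed, with 88 lower and 6 higher, -0.21 without GFP+ replicates 1 and 2, and 0.01 between the PC3 fractions. ZNF74, a zinc finger gene, at 25.4, 24.3 and 22.8 CPM against 42.8, 41.7 and 45.5 CPM (log2 -0.85 ± 0.09, adjusted p 5.2e-05), and PI4KA, a lipid kinase, at 118, 116 and 112 CPM against 174, 168 and 175 CPM (-0.58 ± 0.06, adjusted p 6.8e-05), were steady falls there. HMOX1, heme oxygenase 1 (-0.74), MED15, a Mediator subunit (-0.72), MCM5, SREBF2 and KREMEN1 also lie on chromosome 22. On chromosome 18, 48 of 76 members after 20 Mb were higher (63.2%, beside 12.8%) and 2 lower, with a median of 0.43, while before 20 Mb 1 of 33 was higher and 7 lower, with a median of -0.02. The medians after 20 Mb were 0.31 GC-removed, 0.30 without GFP+ replicates 1 and 2 and 0.16 between the PC3 fractions. DSG2, SMAD4 and SMAD7 lie after 20 Mb, and TYMS and DLGAP1-AS2 before it. The split at 20 Mb and both chromosomes were chosen after their values were seen, and each block's members share 1 chromosome and 1 set of libraries. Chromosome 19, with a median transcript GC of 59.95%, had a median of -0.24 that became 0.03 GC-removed. Over all members the median was -0.11 on the deposited values, -0.01 GC-removed and -0.04 without GFP+ replicates 1 and 2.

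**Figure D5:**
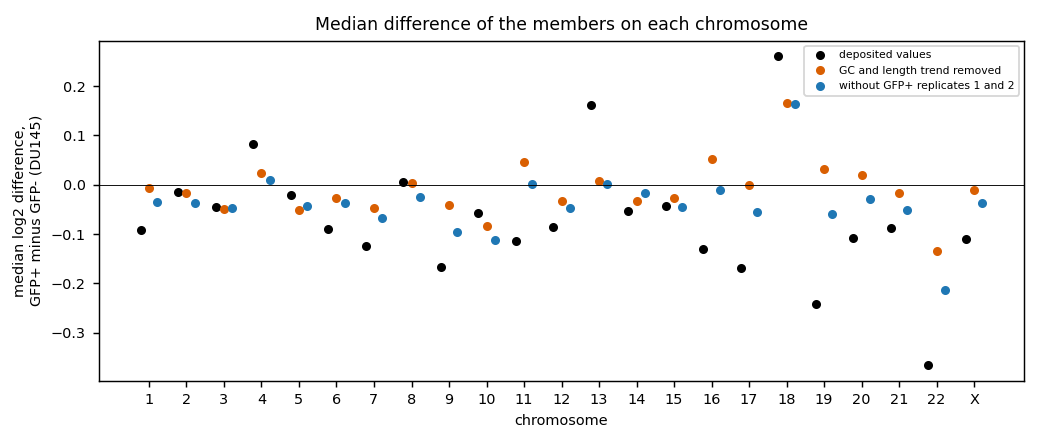
Median log2 difference, GFP+ minus GFP-, of the members on each chromosome (horizontal axis) on the deposited values (black), GC-removed (orange) and without GFP+ replicates 1 and 2 (blue). Chromosome 18 stays highest and chromosome 22 lowest in all 3 versions, while chromosomes 13 and 19 move to near 0 GC-removed.

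Most of the large DU145 differences were not those of PC3. The difference between the lines' effects passed in 1574 members (20.6%, and 2425 or 31.8% GC-removed), in 33 of the 43 rises of at least 2-fold and in 9 of the 10 such falls. With the replicate number as a block it passed in 2585, in 42 of the 43 and in 10 of the 10. The 43 and the 10 were chosen by their DU145 difference, which is part of the difference tested. Only 1 of the 43 was called higher between the PC3 fractions and 4 were called lower, and 4 of the 10 falls were called higher there. TNF fell by 1.47 on the log2 scale in DU145 and rose by 1.29 in PC3, a difference of -2.75 ± 0.17 (SE, limma adjusted p 1.8e-07). RIPK4 was at -1.01 and 1.92 (difference -2.93, adjusted p 8.8e-06), TIMP2 at -0.92 and 1.86 (-2.78, adjusted p 0.00050) and PHLDA2 at -1.36 and 0.60 (-1.96, adjusted p 2.0e-05). EGR1, TDRD7, a Tudor domain protein, and HIST1H2AC rose in DU145 and fell in PC3, where they were at -0.81, -0.52 and -0.80. HSPG2 rose in both, by 2.17 and 0.63 (difference 1.54, adjusted p 1.1e-06). For LEF1 the difference was 0.20 (adjusted p 0.84). The count of members whose effect differed was 1012 without DU145 GFP+ replicate 1, 1029 without replicate 2, 2801 without replicate 3, 946 and 942 without GFP- replicates 1 and 3, 1024, 968 and 974 without PC3 GFP+ replicates 1 and 2 and GFP- replicate 1, and 2630 without PC3 GFP- replicate 2.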

How the data were processed

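RNA of sorted GFP+ and GFP- cells was sequenced, with 3 libraries per group and line. The authors deposited log2 normalised values for 18950 genes. STAR and DESeq2 are named per the submitters' processing notes, while the build, counting tool and use of strand were not given in the sources used here. From the values, each deposited number was the log2 of a scaled estimated read count plus 0.5, and 86.9% of the rebuilt counts were whole within 0.01. Each difference of group means came from limma 3.58.1 (R 4.3.3, trended empirical Bayes, all 12 libraries and 4 groups in 1 fit, 8 residual degrees of freedom before moderation, Benjamini-Hochberg adjustment over the 7624 members, or over all genes of the table for those below the minimum). The trend on GC content and length was a loess fit per library with span 0.4, and its removal also took out each library's level. Gene positions come from GENCODE 29. Named genes were the 15 largest called rises and falls without overlap, the largest calls of each list and the Wnt genes. MCOLN3, SARS, ACTA2, NCAM1, TUBB3, TDRD7, TGFA, ROBO1, SERPINE2, ZNF74, PI4KA, MED15 and HMOX1 were added after their values were seen. Deviations of same-numbered libraries correlated over 0.1 in all 3 PC3 pairs but not in all DU145 pairs. This does not settle whether the numbers pair the samples in either line. The labels state no pairing, and the main fit used none. Some genes that the rule names are not reported here. The members and gene lists were chosen with earlier results of these data known. The procedure was tested on simulated data with independent noise for each gene and library. These data held no GC trend, so the test does not measure how that trend affects the calls. Alternatives numbered 29 planned and 3 chosen after seeing the data.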

Additional observations from a re-analysis of the deposited data

Results flagged for a closer look

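Of the 121 genes named for these results, 89 had a difference between the sorted fractions that was not the same in the libraries labelled DU145 and PC3 (limma's test of the difference of effects, adjusted p under 0.05). The share over all members was 20.6%. Genes were mostly named for their DU145 values, and 117 of the 121 were called there. The DU145 difference is part of the difference tested, so a share above that of all members was partly built in. Each value is the log2 difference in DU145 minus that in PC3. The difference was more positive in DU145 for 38 genes and more negative for 51. The most positive were WDR63 8.81, KIAA1324 7.23, WLS 3.95, XPO4 3.27, ACTA2 3.04, ZSWIM5 2.83, NCAM1 2.64, ATP2B1 2.62, HIST2H4B 2.53 and USP3 2.42. Next came HIST2H4A 2.40, MCOLN3 2.40, HIST1H2AC 2.14, HIST2H2BE 2.09, EGR1 2.07, HIST1H2BK 1.93, KMT2C 1.89, TDRD7 1.89, ZNHIT6 1.75 and DSG2 1.57. Smaller positive differences were seen for HSPG2 1.54, LGR4 1.45, HIST1H1C 1.42, FZD6 1.34, THBS1 1.25, USP9X 1.13, MET 1.03, ACSL3 0.90, KDM3A 0.88 and SMAD4 0.86. The least positive were YAP1 0.82, TGFA 0.80, ROBO1 0.79, AMOTL1 0.79, TNFRSF12A 0.58, TJP1 0.54, SMAD7 0.47 and TPX2 0.39. The most negative were RIPK4 -2.93, TIMP2 -2.78, TNF -2.75, LAMB1 -2.50, DLGAP1-AS2 -2.06, PHLDA2 -1.96, FZD8 -1.90, C1QL4 -1.40 and RCN3 -1.35. After these stood ITGA5 -1.11, NFKB2 -1.08, ZNF74 -0.98, LTBP2 -0.94, FASN -0.90, IER3 -0.89, MC1R -0.88 and TRIB3 -0.88. Differences of intermediate size were seen for ACLY -0.87, HMOX1 -0.86, CBSL -0.85, ASNS -0.83, KREMEN1 -0.79, WNT5B -0.78, DHCR7 -0.76, MVD -0.73 and PI4KA -0.73. Closer to 0 lay CBS -0.71, PLAUR -0.71, PSAT1 -0.70, FOSL2 -0.68, SHMT2 -0.68, F11R -0.68, MED15 -0.65, MCM5 -0.65 and LSS -0.63. Then followed SLC16A3 -0.60, SCD -0.58, CTNNBIP1 -0.56, CDC20 -0.54, XPO5 -0.54, HK1 -0.53, DAG1 -0.53, ITGB5 -0.53 and SREBF2 -0.50. The smallest were TUBB3 -0.48, TYMS -0.48, FDFT1 -0.45, GPI -0.45, DVL1 -0.44, BIRC5 -0.38 and MYC -0.37. The value of WDR63 depends on the 0.5 read that stands for a 0, and ACTA2, NCAM1, MCOLN3 and LGR4 were below the minimum in DU145 and tested over all genes. The cause of these differences was not tested.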

How the results depend on the processing

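With library weights 5778 members were called, 2166 higher and 3612 lower, with a minimum log2 of 6 there were 1723 (270 higher), with a minimum of 0 there were 1613 higher, and at an adjusted p under 0.01 there were 779, 234 higher and 545 lower. Without GFP+ replicates 1 and 2 the counts were 91, 30 and 61. Quantile normalization gave 1110 lower, the GC and length trend removed with each library's median level kept gave 330 higher and 2802 lower, and each library's median deviation set to 0 gave 846 lower. Leaving out single libraries gave 831 to 4303 calls, 240 to 1546 higher and 569 to 2757 lower. The count of effects that differed between the lines was 2585 with the replicate block, 5425 with library weights, 2425 with the trend removed, 2824 with the trend removed and the replicate block, 2651 with the trend removed without GFP+ replicate 3, 2771 with the level kept, 524 without GFP+ replicates 1 and 2, 578 at 0.01, and 942 to 2801 without single libraries. Calls of at least 2-fold, 43 higher and 10 lower, were 420 and 115 with no minimum, 305 and 72 with a minimum of 0, 11 and 3 with a minimum of 6, 118 and 31 with the minimum taken over all 12 libraries, 201 and 139 with quantile normalization, 86 and 7 with the median deviation set to 0, 73 and 14 with library weights, and 22 and 17 with the level kept. Calls in the gene lists numbered 483 with library weights, 26 without GFP+ replicates 1 and 2, 95 at 0.01 and 94 to 390 without single libraries. CTNNB1 changed sign, to -0.17 with the trend removed, with or without the replicate block, -0.20 with the trend removed without GFP+ replicate 3, -0.31 with the level kept, -0.070 without GFP+ replicates 1 and 2, and -0.024 to 0.064 without single libraries. With the level kept, TCF7L2 was at -0.083, LRP6 at -0.13 and OCLN at -0.038. The cause was not tested.

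Whether equal numbers pair the samples is not settled. In DU145, deviations of same-numbered samples correlated at -0.16, 0.36 and 0.55, and those of GFP+ replicate 1 and GFP- replicate 2 at 0.52. In PC3, same-numbered samples correlated at 0.11, 0.34 and 0.28, and GFP+ replicate 3 with GFP- replicate 1 at 0.096. A fit with the replicate block called 3783 members. Of the 117 named genes called, the block lost 0, trend removal 13, quantile normalization 11, a threshold of 0.01 lost 22, and leaving out GFP+ replicates 1 and 2 lost 78. That last setting compares 1 GFP+ library with 3 and assumes that it varies like the other groups. Depth limits genes such as AXIN2, with 45 and 25 reads.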

Other observations

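Other genes also differed steadily. TGFA, a ligand of the EGF receptor, stood at 68.8, 78.1 and 72.5 CPM in GFP+ and 34.8, 35.3 and 29.1 CPM in GFP- (log2 1.15 ± 0.13, limma adjusted p 0.00015). ROBO1, a receptor of the guidance protein SLIT, was at 65.9, 66.7 and 45.5 CPM against 26.8, 26.9 and 25.9 CPM (log2 1.14 ± 0.14, adjusted p 0.00030). SERPINE2, a secreted protease inhibitor, was at 21.2, 22.6 and 20.8 CPM against 38.2, 43.5 and 39.1 CPM (log2 -0.90 ± 0.09, adjusted p 5.0e-05), and it was also lower in GFP+ between the PC3 fractions (-0.78, adjusted p 7.8e-05). TDRD7 was at 52.9, 61.6 and 50.7 CPM against 20.03, 22.9 and 20.9 CPM (log2 1.37 ± 0.11, adjusted p 4.1e-06). The groups did not overlap in these genes.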
